A study of Mus musculus with 12 samples.

Results

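C1qa, Cfp, Fcna, Mrc1, Tlr4 and Siglec1 are 6 genes through which macrophages recognise dying cells and microbes, and their mRNA was measured in whole thymus of WT and Axl-/-Mertk-/- mice. They were chosen by name, as rows of a table of 479 genes deposited with the series, and fall into 3 complement and ficolin genes (C1qa, Cfp, Fcna) and 3 receptor genes (Mrc1, Tlr4, Siglec1). All 6 were listed, once each. The study asked how loss of the receptor tyrosine kinases Axl and Mer (encoded by Mertk), which bind dying cells through bridging ligands, changes gene expression in the thymus.

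There were 6 WT mice and 6 Axl-/-Mertk-/- mice (labelled AMDKO), with 3 males and 3 females of each genotype, all 1 month old and with no treatment given in the labels. Both genes are inactivated in every cell of the mutants, not in macrophages alone. The mutant lines had been backcrossed to C57BL/6. C57BL6/J mice came from a supplier, and the WT and mutant lines were kept in separate housing, so that housing and genotype cannot be told apart. The label of 1 WT male (the first listed below) ends in a b that the other 11 lack and whose meaning is not given in the sources used here. RNA came from all cells of the thymus, so that fewer cells of a type and less mRNA per cell cannot be told apart in any value below.

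C1q, whose A chain C1qa encodes, is the recognition molecule that starts the classical complement pathway and also coats dying cells. Properdin (Cfp) stabilises the enzyme that amplifies the alternative pathway, and ficolin A (Fcna) is a soluble lectin that binds acetylated sugars and starts the lectin pathway. The mannose receptor (Mrc1, CD206) is an endocytic C-type lectin, Tlr4 is the signalling receptor for bacterial lipopolysaccharide, and sialoadhesin (Siglec1, CD169) binds sialylated glycans on other cells. Tissue macrophages, including those that clear dying thymocytes, are known sources of most of these products.

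On mm10 with GENCODE vM21, C1qa lies at chr4:136895917-136898803 on the minus strand and Tlr4 at chr4:66827584-66930284 on the plus strand. Cfp lies at chrX:20925454-20931555 on the minus strand. The other 3 genes are on chromosome 2, with Mrc1 at chr2:14229392-14332057 (plus strand), Fcna at chr2:25624666-25628030 (minus strand) and Siglec1 at chr2:131069220-131086765 (minus strand). Siglec1 is 2.27 Mb from Mertk, and 30 genes of the table lie within 10 Mb of Mertk. Chromosome 2 DNA that stayed linked to the mutant Mertk allele and the mutation itself cannot be told apart for Siglec1. Fcna and Mrc1 are 103 and 114 Mb from Mertk.

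RefSeq (GRCm38.p6) promoter sequences were found for 3 of the 6 genes, Cfp, Fcna and Mrc1, whose mRNA levels did not overlap between genotypes. They are shown so that the sequence before the RefSeq starts of the genes that moved together can be read beside the values. For Fcna and Mrc1 these sequences reach into the gene as placed above by GENCODE, whose start differs from that of RefSeq. Each is the 250 bases before the RefSeq start, on the strand of the gene, with capitals for GAGGAA or its reverse complement TTCCTC, letters of the kind bound by the macrophage transcription factor PU.1.
Cfp, chrX:20931556-20931805, minus strand: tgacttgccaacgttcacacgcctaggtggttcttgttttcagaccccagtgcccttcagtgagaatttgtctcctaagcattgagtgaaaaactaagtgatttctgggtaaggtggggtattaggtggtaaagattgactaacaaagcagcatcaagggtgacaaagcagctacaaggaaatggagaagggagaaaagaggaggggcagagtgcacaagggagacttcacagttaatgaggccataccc
Fcna, chr2:25627975-25628224, minus strand: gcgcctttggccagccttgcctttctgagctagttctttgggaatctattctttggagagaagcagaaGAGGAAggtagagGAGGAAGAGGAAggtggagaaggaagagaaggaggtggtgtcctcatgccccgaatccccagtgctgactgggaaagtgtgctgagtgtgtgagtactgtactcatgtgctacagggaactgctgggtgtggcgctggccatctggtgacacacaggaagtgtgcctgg
Mrc1, chr2:14229164-14229413, plus strand: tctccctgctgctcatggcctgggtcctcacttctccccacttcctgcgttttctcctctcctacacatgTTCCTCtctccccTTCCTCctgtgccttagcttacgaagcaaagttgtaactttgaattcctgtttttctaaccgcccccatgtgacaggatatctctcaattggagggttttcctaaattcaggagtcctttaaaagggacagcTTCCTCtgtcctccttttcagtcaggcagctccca
The Fcna window held 3 copies of GAGGAA, beginning 182, 169 and 163 bases before the start. The Mrc1 window held 3 copies on the other strand, at 180, 167 and 35 bases before the start, and the Cfp window held 0. These letters were searched after the sequences had been seen. Of 32851 mouse promoter windows of the same length, 23.3% held them on either strand. The share of windows with 3 copies was not counted. A match is given as a description, and binding was not measured. The longer GAGGAAGT (reverse complement ACTTCCTC), found in 2.44% of the windows, was in none of these 3.

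The values are FPKM (fragments for each kilobase of exon, relative to the mapped reads of the library), recovered from deposited log2(FPKM + 5) values. Depth is not stated in the sources used here, and its estimate from the steps between low values came to between 18840000 and 24520000 reads in WT and between 19370000 and 23830000 in Axl-/-Mertk-/- libraries. A count of 3 reads over 2000 bases of exon is then worth 0.0612 to 0.0796 FPKM. The authors chose the table from these same mice by a rule that the sources used here do not state, and 455 of its 479 genes (95.0%) had an adjusted p under 0.05 in either direction (limma). The tests below therefore give the size and spread of each difference and are not independent evidence of it. Axl itself was 13.3 ± 1.83 FPKM in WT and 2.17 ± 0.199 in Axl-/-Mertk-/- thymus (SD, n = 6 each), or 16.3% of the WT mean, with no overlap. Mertk was not among the 479 genes, so its level could not be read here.

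All 6 genes were lower in the Axl-/-Mertk-/- thymus. The fall was deepest for Fcna, which kept 18.9% of its WT mean. Siglec1 kept 45.1%, Mrc1 52.8%, Cfp 60.4%, Tlr4 68.2% and C1qa 70.7%. In limma with sex as a covariate, all 6 had an adjusted p under 0.05 and were lower, as were 61.8% of the genes in the table (296 of 479), so the count by itself does not set these genes apart. All 6 also had an adjusted p under 0.05 in the exact permutation test, as did 62.2% of the table in the same direction. In 4 of the 6 (Cfp, Fcna, Mrc1, Siglec1) every mutant mouse was below every WT mouse, against 26.3% of the table.

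**Figure D1:**
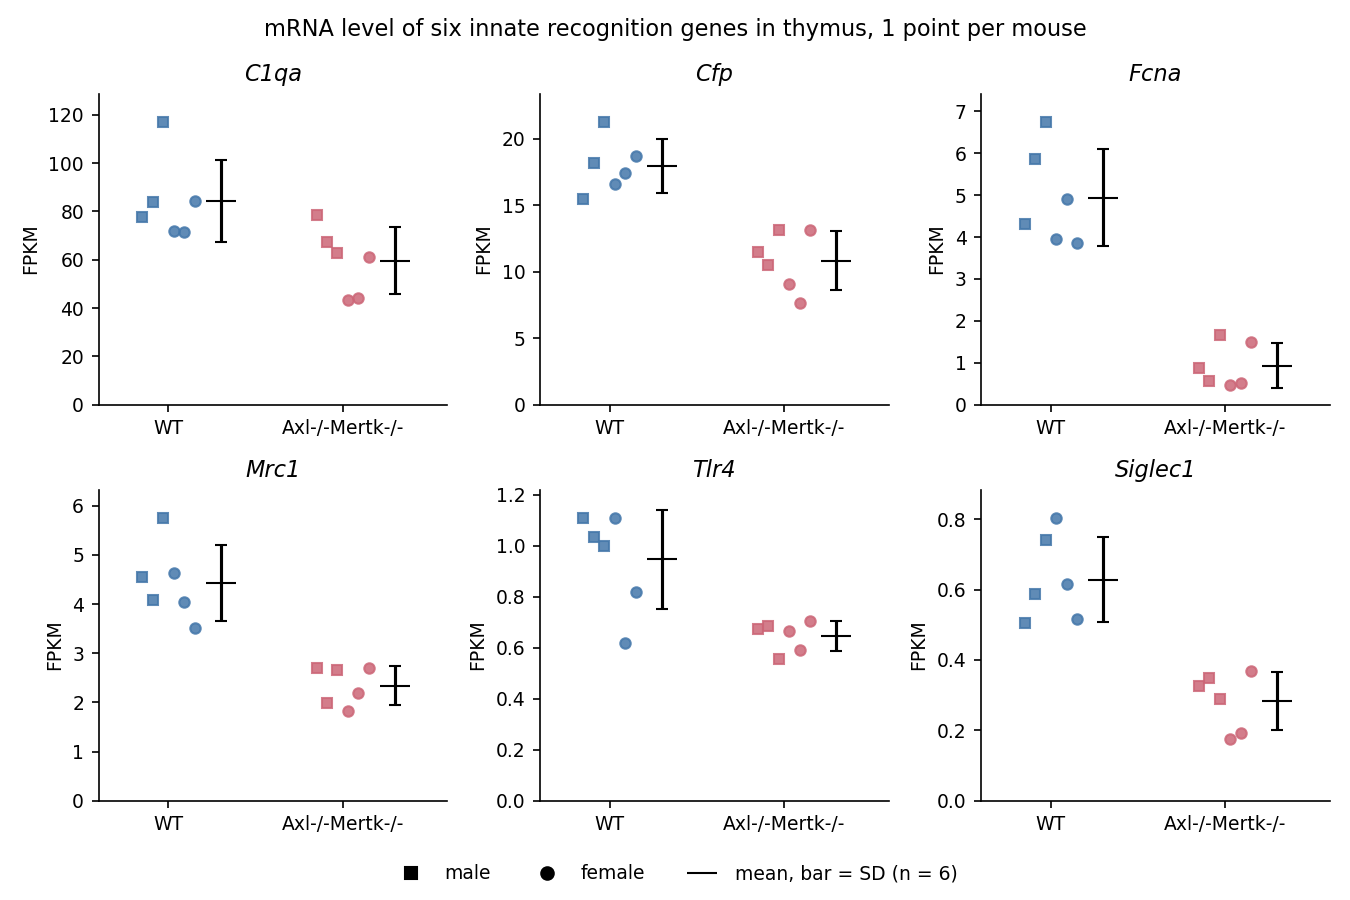
FPKM (linear axes from 0) of each of the 6 genes in thymus, 1 point per mouse, squares for males and circles for females, with the mean and SD of 6 mice per genotype. Cfp, Fcna, Mrc1 and Siglec1 have no overlap between WT and Axl-/-Mertk-/- mice, whereas C1qa and Tlr4 overlap.

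C1qa was the most highly expressed of the 6. In WT males it was 77.8, 83.7 and 117 FPKM and in WT females 71.9, 71.4 and 84.2. In Axl-/-Mertk-/- males it was 78.7, 67.4 and 62.9 and in Axl-/-Mertk-/- females 43.3, 44.0 and 61.3. The highest mutant male was therefore within the WT range, while the other 5 mutants were below all WT mice. The mean fell from 84.4 ± 17.0 to 59.6 ± 13.8 FPKM (SD, n = 6 each). On the log2(FPKM + 5) scale the fold change was -0.48 (SE 0.117, limma adjusted p = 0.00426), and the two-sided exact permutation test gave p = 0.0108 (adjusted p = 0.0147 over the table). In males alone the limma adjusted p was 0.110.

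Cfp was intermediate in level. It was 15.4, 18.2 and 21.3 FPKM in WT males, 16.6, 17.4 and 18.7 in WT females, 11.5, 10.5 and 13.2 in mutant males and 9.10, 7.64 and 13.2 in mutant females. All WT mice were above all mutant mice, and the mean fell from 18.0 ± 2.01 to 10.8 ± 2.22 FPKM (SD, n = 6 each). The log2 fold change was -0.54 (SE 0.0917, limma adjusted p = 0.000838), with an exact permutation p of 0.00216, the smallest that 924 arrangements of the mice can give. Among the 313 genes of the table with a lower mutant mean, Cfp was itself the median gene in the share kept.

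Fcna was the gene that lost most. It was 4.30, 5.85 and 6.75 FPKM in WT males and 3.95, 4.91 and 3.86 in WT females, against 0.886, 0.553 and 1.66 in mutant males and 0.463, 0.520 and 1.51 in mutant females. The lowest WT mouse was above the highest mutant mouse. The mean fell from 4.94 ± 1.15 to 0.932 ± 0.529 FPKM (SD, n = 6 each), and the share kept ranked 8 from the lowest of 479 genes. With log2(FPKM + 5) the fold change was -0.74 (SE 0.0736, limma adjusted p = 3.97e-05) and -2.41 (SE 0.258) with a constant of 0.1. Mutant males kept 18.3% and mutant females 19.6% of the WT mean of their sex. Fcna shares 90 of its 1374 exon bases with the antisense gene Fcnaos. Whether the counting used strand is not given in the sources used here, so that reads of those bases are uncertain.

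Mrc1 was at about the WT level of Fcna but fell less. It was 4.56, 4.08 and 5.76 FPKM in WT males, 4.63, 4.04 and 3.51 in WT females, 2.70, 1.98 and 2.66 in mutant males and 1.82, 2.19 and 2.69 in mutant females. The genotypes did not overlap, and the means were 4.43 ± 0.765 and 2.34 ± 0.393 FPKM (SD, n = 6 each). The log2 fold change was -0.36 (SE 0.0507, limma adjusted p = 0.000336). The microRNA gene Mir511 lies within Mrc1 and shares 0 bases with its exons.

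Siglec1 and Tlr4 were the lowest of the 6. Siglec1 was 0.505, 0.586 and 0.742 FPKM in WT males, 0.804, 0.615 and 0.517 in WT females, 0.327, 0.348 and 0.289 in mutant males and 0.176, 0.191 and 0.368 in mutant females. The genotypes did not overlap, and the means were 0.628 ± 0.121 and 0.283 ± 0.0817 FPKM (SD, n = 6 each). On the log2(FPKM + 5) scale this fall was -0.091 (SE 0.0165, limma adjusted p = 0.00122), and with a constant of 0.1 it was -0.94 (SE 0.162).

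Tlr4 was 1.11, 1.03 and 0.998 FPKM in WT males, 1.11, 0.617 and 0.818 in WT females, 0.675, 0.686 and 0.556 in mutant males and 0.667, 0.590 and 0.706 in mutant females. One WT female was inside the mutant range, and the other 5 WT mice were above all mutants. The means were 0.948 ± 0.194 and 0.647 ± 0.0595 FPKM (SD, n = 6 each), with a log2 fold change of -0.074 (SE 0.0199, limma adjusted p = 0.00655) and an exact permutation p of 0.0108 (adjusted p = 0.0147). In females alone the limma adjusted p was 0.228.

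The order of the levels, which FPKM allow because they are per length, differed between genotypes. In WT thymus C1qa was above Cfp, and Cfp above Fcna and Mrc1, without overlap between mice. Fcna (3.86 to 6.75) overlapped Mrc1 (3.51 to 5.76), and Tlr4 (0.617 to 1.11) overlapped Siglec1 (0.505 to 0.804). In the mutants Fcna (0.463 to 1.66) was below Mrc1 (1.82 to 2.70) in every mouse and overlapped Tlr4 (0.556 to 0.706), and Siglec1 (0.176 to 0.368) was below all of these. Within each mouse, the log2 ratio of Fcna to Mrc1 was 0.14 ± 0.27 in WT and -1.50 ± 0.60 in mutants (SD, n = 6 each), with ranges of -0.23 to 0.52 and -2.08 to -0.68 that did not overlap.

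The constant in the deposited logarithm sets how large these falls look. The study set thresholds of an adjusted p under 0.05 and a log2 fold change beyond 0.5 on DESeq2 fits of raw counts. Its text names C1qa, Tlr4 and Siglec1 among the lower mRNAs. Here the same thresholds were put on limma fits of values with an added constant, which shrinks the change of low genes. A gene that fails here may therefore have passed in the study. With log2(FPKM + 5), 2 of the 6 genes, Cfp and Fcna, passed both thresholds (limma), as did 3.13% of the table in the lower direction. With a constant of 1 the number was 4 (C1qa, Cfp, Fcna and Mrc1, with 11.9% of the table), and with 0.1 it was 5 (all but Tlr4, with 50.9% of the table). The log2 fold change of C1qa moved from -0.48 to -0.51, whereas that of Siglec1 moved from -0.091 to -0.94 and that of Mrc1 from -0.36 to -0.89. The shares of the WT mean carry no constant. As a log2 ratio of mean FPKM with no constant, the change was -0.551 for Tlr4 and -0.501 for C1qa.

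**Figure D2:**
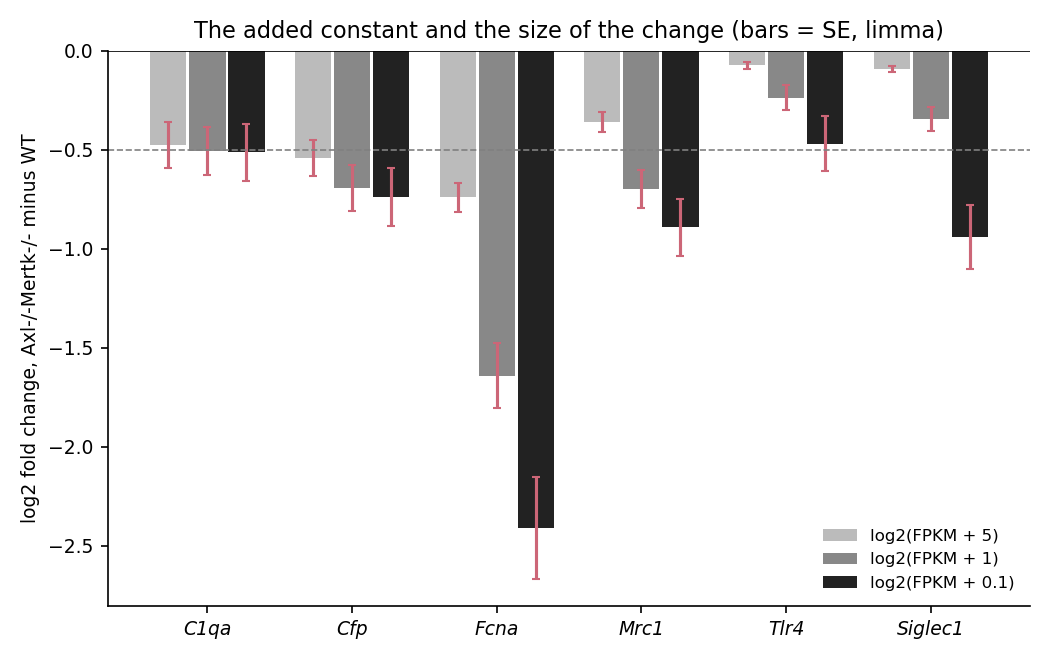
log2 fold change (Axl-/-Mertk-/- minus WT, limma with sex as a covariate, bars from 0, error bars = SE) of the 6 genes with 5, 1 or 0.1 added to FPKM before the logarithm, with the threshold of -0.5 as a dashed line. The highly expressed C1qa changes little between constants, while Fcna goes from -0.74 to -2.41 and Siglec1 from -0.091 to -0.94.

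The shares kept by the complement and ficolin genes and by the receptors lay across each other. The mean log2 ratio of mutant to WT mean FPKM was -1.21 for the former against -0.87 for the 3 receptors, a difference of -0.34, and the median over the table was -0.56. That difference turned on Fcna. Without it, C1qa and Cfp averaged -0.61, and the difference to the receptors was 0.26 in the other direction. Per mouse, the mean log2 value of the complement genes relative to WT minus that of the receptors ranged from -0.44 to 0.18 in WT and from -0.67 to 0.062 in mutants, so that the genotypes overlapped. The 6 genes were named in advance of this comparison with earlier results of these mice known, and it carries no test.

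**Figure D3:**
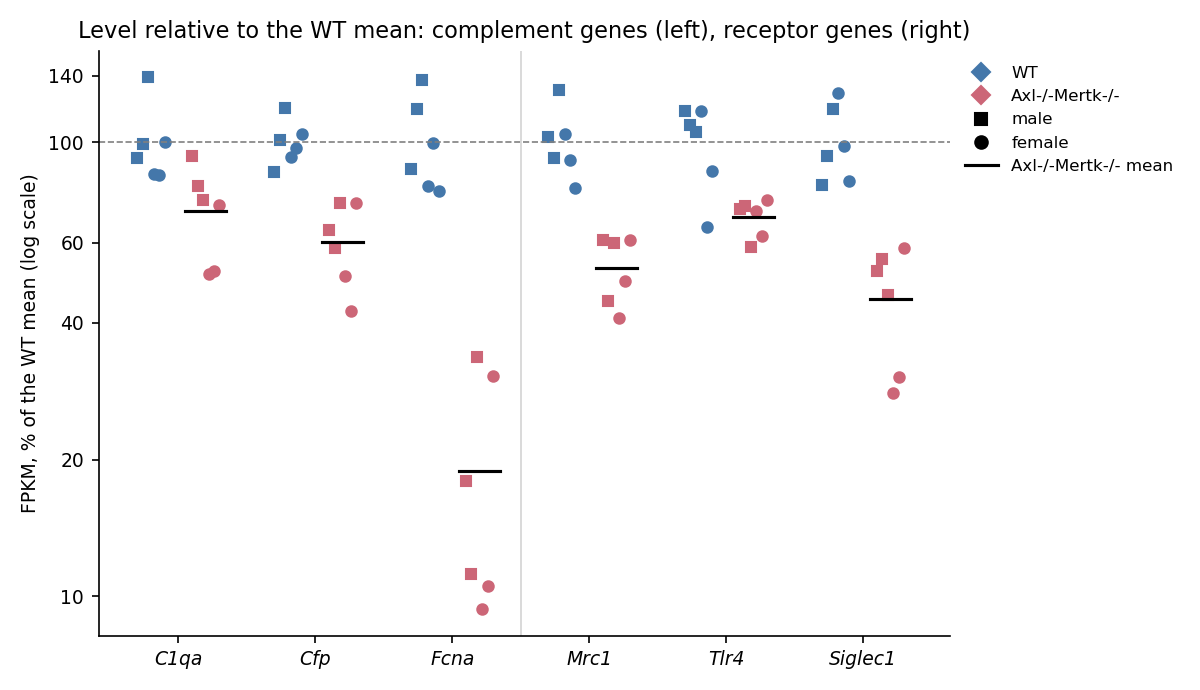
FPKM of each mouse as percent of the WT mean of that gene (log axis), complement and ficolin genes on the left and receptor genes on the right, squares for males, circles for females, black lines for the Axl-/-Mertk-/- mean. The mutant means lie between 45.1% and 70.7% for 5 genes, and Fcna is apart at 18.9%.

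Ratios between 2 genes in the same mouse showed the same feature. Of the 15 pairs of the 6 genes, 5 had ratios that did not overlap between genotypes, and 4 of these were among the 5 pairs that include Fcna. Over all pairs of table genes that are both lower in the mutants, 4.45% (2129 of 47895) did not overlap, and over all its pairs 37.7%. The 5 pairs share genes and are not independent. The remaining pair without overlap was C1qa with Siglec1, whose log2 ratio was 7.07 ± 0.34 in WT and 7.74 ± 0.22 in mutants. The ratio of Fcna to Siglec1 overlapped, at 2.96 ± 0.36 in WT and 1.58 ± 0.63 in mutants (SD, n = 6 each). C1qa and Tlr4 kept nearly the same ratio, 6.48 ± 0.37 and 6.50 ± 0.34.

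No difference in the genotype effect between the sexes was detected with 3 mice of each sex and genotype. The limma interaction of genotype and sex had an adjusted p of 0.962 for each of the 6 genes, and 0 of the 479 genes passed at an adjusted p under 0.05, with 15 genes (3.13%) and none of the 6 at an unadjusted p under 0.05. The share of the WT mean in males and females was 75.0% and 65.3% for C1qa, 64.0% and 56.7% for Cfp, 50.9% and 55.0% for Mrc1, 61.1% and 77.1% for Tlr4, and 52.6% and 38.0% for Siglec1. C1qa was higher in males over both genotypes by 0.36 on the log2 scale (SE 0.117, limma adjusted p = 0.238), a term that was read after the data had been seen.

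The depth behind these values differed widely. With the longest transcript of each gene, C1qa rested on about 940 to 2853 reads per library and Cfp on 257 to 816. Fcna rested on about 125 to 217 reads in WT but only 15 to 49 in mutants, and Siglec1 on 74 to 118 and 25 to 56. Between mutant mice Fcna varied by 56.8% of its mean, above the 18.9% that counting alone would give. For Tlr4 the mutants varied by 9.2%, below the 13.2% expected from counting about 48 to 69 reads, so its spread in the mutants is at the limit of the depth. Lengths other than that of Siglec1 are approximate, because the top isoform that was counted is not given in the sources used here.

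Mice of the same genotype and sex also differed in ways that the members other than Tlr4 shared. After the mean of each genotype and sex was removed, 13 of 15 pairs had a positive Pearson r over the 12 mice, with a median of 0.50 against 0.092 over all pairs of the table. Cfp and Fcna varied most closely (r = 0.84, Spearman rho = 0.88), followed by C1qa and Cfp (r = 0.75, rho = 0.64) and Mrc1 and Siglec1 (r = 0.74, rho = 0.57). Tlr4 and Fcna went the other way (r = -0.40, rho = -0.36). The r of Tlr4 was 0.03 with C1qa, -0.11 with Cfp, 0.16 with Mrc1 and 0.44 with Siglec1. These are descriptions, since the points share library and depth. Among the mutants, the same male and the same female (the last value listed for each sex) were highest for both Cfp and Fcna. Among WT mice, the last male listed was highest for C1qa, Cfp, Fcna and Mrc1. With this WT male left out of the correlation, the first 3 of these values were 0.81, 0.70 and 0.67. The means that were removed still included this male, so its influence was not fully taken out.

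**Figure D4:**
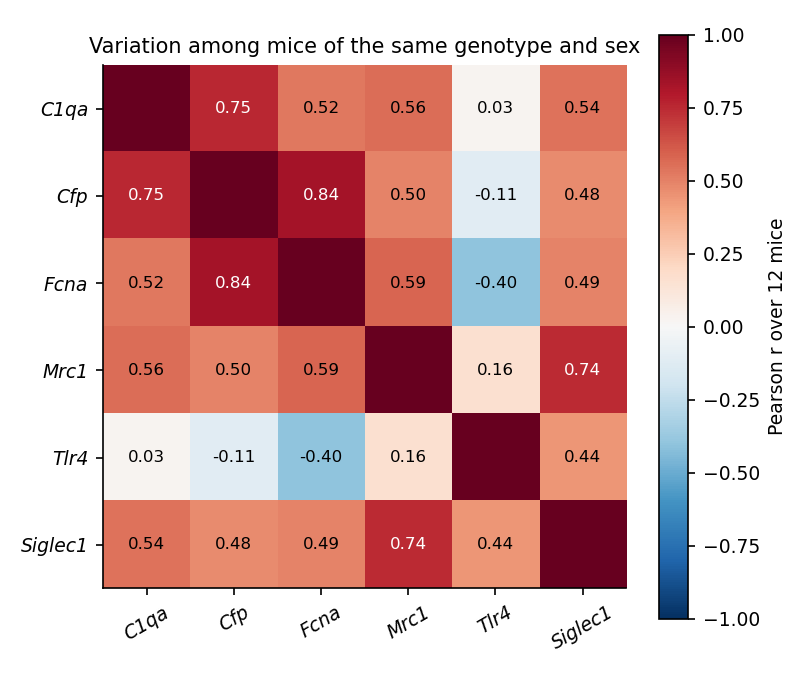
Pearson r between the 6 genes over 12 mice, of log2(FPKM + 5) after subtracting the mean of each genotype and sex (colour scale from -1 to 1, value in each cell). Cfp and Fcna are highest at 0.84, and Tlr4 is the gene least like the others, with -0.40 to Fcna. The spread of Tlr4 in the mutants is at the limit of the depth.

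The genes whose residual pattern was most like each member, among the genes of the table with a mean of at least 1 FPKM, were not always lower in the mutants. S100a4 (r = 0.93, 64.8% of the WT mean), Ifitm1 (0.92, 158%) and Vcam1 (0.90, 60.8%), an adhesion molecule of tissue macrophages, were most like C1qa. Gatm (0.94, 240%), Atp6v0d2 (0.93, 176%) and Gpnmb (0.90, 314%) were most like Cfp and had higher means in the mutants. Gatm lies 6.09 Mb from Mertk, under the same limit as Siglec1. For Fcna they were Arl11 (0.96, 144%), Gzmb (0.90, 182%) and Kcnj10 (0.90, 62.9%). Chl1 (0.93, 48.2%) and Tmem26 (0.92, 68.5%) were most like Siglec1, and Sorbs3 (0.80, 151%) and Tmem26 (0.80) most like Mrc1. Tlr4 had no close partner, with Uprt (0.65, 61.4%) first. The spread of Tlr4 in the mutants was at the limit of the depth, as given above.

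The other complement genes of the table moved in both directions. Of a list of 53 complement genes, 8 were in the table. All 8 had an adjusted p under 0.05 (limma), as had 95.0% of the whole table. Of the 8, 5 were lower and 3 higher, with a median log2 ratio of -0.52, and 65.3% of the whole table had a lower mean. Besides the 3 members, C2, a protease of the classical and lectin pathways, fell to 46.7% of the WT mean (from 2.81 ± 0.496 to 1.31 ± 0.146 FPKM, SD, n = 6 each), and C3, the central component of all pathways, fell to 68.7% (from 30.7 ± 5.50 to 21.1 ± 2.96 FPKM). C3ar1, the receptor for the C3a fragment, rose to 220% (from 0.694 ± 0.162 to 1.53 ± 0.405 FPKM), without overlap. Susd4, a complement inhibitor, rose to 151%, and Vtn, which encodes vitronectin, an inhibitor of the terminal pathway, rose to 162% (limma adjusted p = 0.0285). For Vtn the exact permutation test gave an adjusted p of 0.0543.

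Among 47 lectin genes 6 were in the table, 5 lower and 1 higher. All 6 had an adjusted p under 0.05 (limma), as had 95.0% of the whole table. Clec1b, the podoplanin receptor CLEC-2, kept 44.1% of its WT mean without overlap (2.08 ± 0.626 and 0.918 ± 0.479 FPKM, SD, n = 6 each). Cd209a, Cd209d and Cd209e, relatives of the dendritic cell lectin DC-SIGN, kept 53.1%, 51.5% and 40.7%. These 3 are close paralogs, and how reads were divided between them is uncertain. Clec11a, a secreted growth factor with a lectin domain, rose to 144%. Of 28 genes for Toll-like receptors and their partners, 2 were in the table, Tlr4 and the DNA sensor Tlr9, which fell to 69.4% (from 1.15 ± 0.220 to 0.795 ± 0.130 FPKM, limma adjusted p = 0.0106). Siglec1 was the only one of 10 Siglec genes.

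Of 46 scavenger, Fc and phagocytic receptor genes, 16 were in the table. There were 8 that fell and 7 that rose at an adjusted p under 0.05 (limma), and Marco, a scavenger receptor, did not pass (39.6% of the WT mean, adjusted p = 0.068). Itgad, an integrin subunit of red pulp macrophages, fell to 10.6% and Cd163, the haemoglobin scavenger receptor, to 17.7%, beside Axl and Fcna among the lowest 8 shares of the table. Timd4, a receptor for phosphatidylserine on dying cells, fell to 43.7%. Stab1, another scavenger receptor, rose to 252%, Tyro3, the third kinase of the family of Axl and Mer, to 246%. Tyro3 lies 8.88 Mb from Mertk, so that the limit given for Siglec1 holds for it too. Trem2, a lipid receptor of macrophages, rose from a mean of 1.82 to 3.69 FPKM (log2 ratio 1.02). Pilrb1 and Pilrb2, which were lower, are close paralogs and uncertain.

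**Figure D5:**
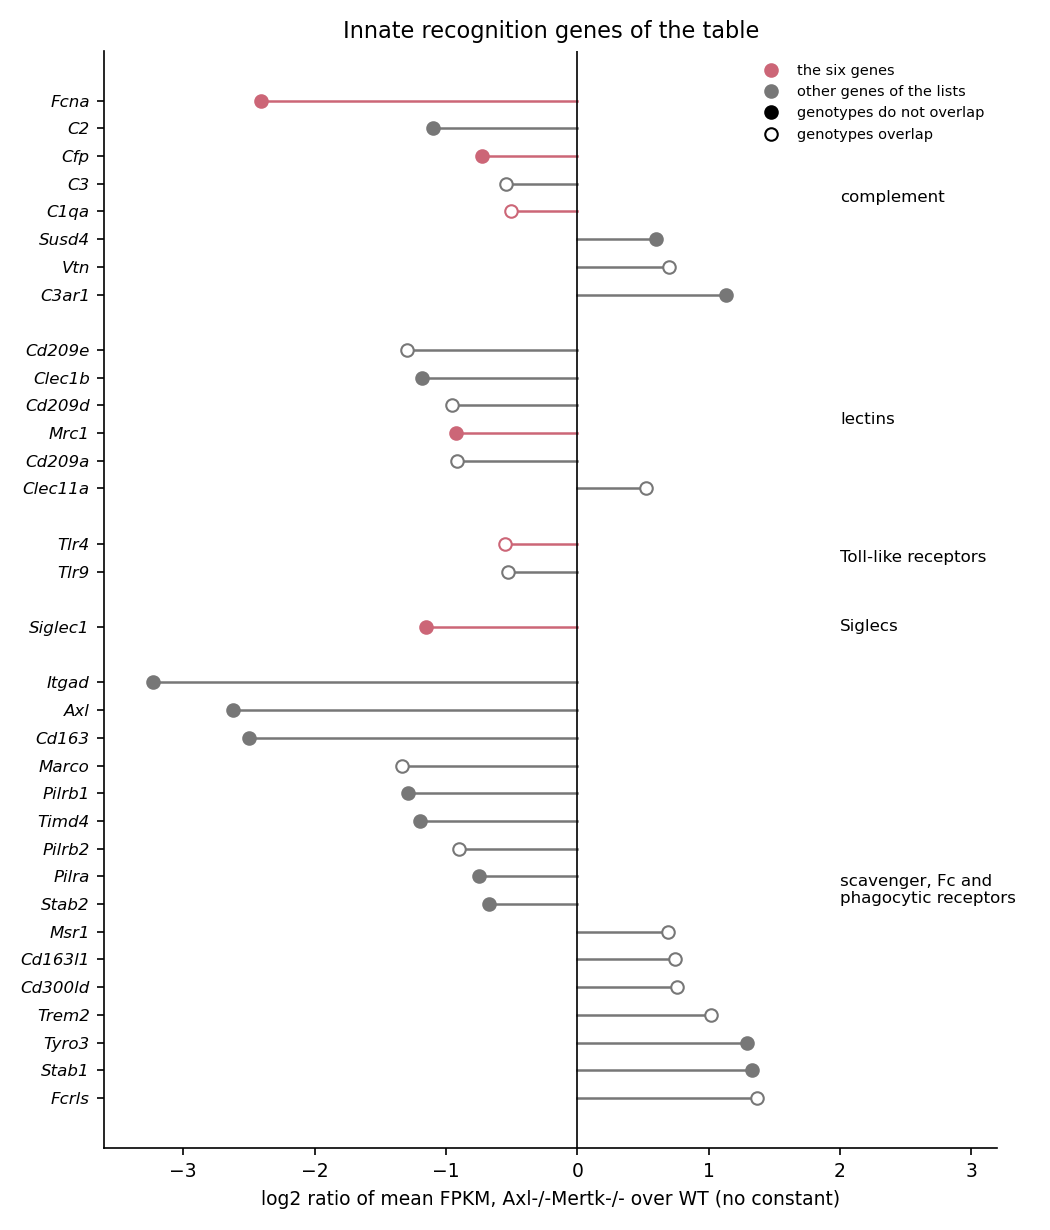
log2 ratio of mean FPKM (Axl-/-Mertk-/- over WT, no constant) of the table's genes from the complement, lectin, Toll-like receptor, Siglec and scavenger, Fc and phagocytic receptor lists, with the 6 genes in red and filled points where the genotypes do not overlap. Complement genes run from Fcna at -2.41 to C3ar1 at 1.14, and receptors from Itgad at -3.23 to Fcrls at 1.37.

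Macrophage markers moved with the 6 genes. Of 11 markers, 5 were in the table (Axl, Timd4, Vcam1, Cd163 and Spic, the transcription factor of red pulp macrophages), and their summed level was 65.2 to 94.9 FPKM in WT and 31.2 to 42.7 in mutants. Without Axl the sums were 53.3 to 78.0 and 29.3 to 40.5 FPKM. Most of either sum was Vcam1, which alone was 45.0 to 66.6 FPKM in WT and 26.8 to 34.1 in mutants. All 5 were lower in the mutants, and none was at 0 in any mouse. In the mutants Timd4 was highest in the male (2.13 FPKM) and the female (2.82) that were also highest for Fcna (1.66 and 1.51), and the same held for Spic (4.13 and 2.86) and Vcam1 (34.1 and 32.4). It did not hold for Axl, whose highest mutant male was another (2.45 against 2.15 FPKM), or for Cd163, whose highest mutant female was another (0.154 against 0.112 FPKM). Of the other lists, 1 of 7 dendritic cell markers (Cd209a, 0.727 to 1.27 FPKM in WT and 0.288 to 0.847 in mutants) and 1 of 4 endothelial markers (Stab2, 0.619 to 0.838 and 0.349 to 0.592) were listed. None of the markers of monocytes, neutrophils, B cells, thymocytes or thymic epithelium was listed, so the tissue label could not be checked with them. The part that the number of macrophages had in the values of the 6 genes was not tested.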

How the data were processed

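Total thymus RNA of 12 mice was analysed, 6 per genotype, grouped by the genotype and sex in the labels. Libraries were made with a stranded mRNA kit from 500 ng RNA and read as single reads of 50 bases. Per the submitters' processing notes and the methods, CASAVA 1.8.2, FastQC, STAR 2.5.3a (mm10) and HOMER 4.10.4 were used, with FPKM over the exons of the top isoform. The values that the authors deposited are log2(FPKM + 5) of 479 genes. FPKM were recovered as 2 to the power of the value, minus 5, and rounded to 3 decimals. The authors tested raw counts with DESeq2 and sex as a covariate. Counts were not used here, and limma 3.58.1 (R 4.3.3, sex as covariate, Benjamini-Hochberg over 479 genes) on the deposited log2 values took its place, with the thresholds of the study, after a test on simulated data. Single genes were also compared with two-sided exact permutation tests (924 arrangements), adjusted over the 479 genes. SD is between mice. Depth was searched between 12000000 and 30000000 reads from the steps in low values with 140 to 212 genes per library, and fits to separate sets of these genes differed by at most 0.46%. A doubled depth would fit as well, and the search range, narrowed after the values were seen, decides between them. Counting error only is covered by such reads. The 6 genes and the gene lists were chosen with earlier results of these data known. Named beside the 6 genes are Axl, every listed gene that the table holds (as counts, with values for some) and the genes most like each member. For these, Pearson r was taken over mice after removal of the mean of each genotype and sex. Alternatives were constants of 1 and 0.1, no sex covariate, a mean of at least 1 FPKM, each sex alone, permutation within sex, medians, omission of Fcna or Siglec1, and omission of each mouse. Promoters are from RefSeq, and Python 3.11.15 with numpy 2.4.6, pandas 2.3.3 and matplotlib 3.10.9 was used.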

Additional observations from a re-analysis of the deposited data

Results flagged for a closer look

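The C1qa level of 1 WT male was 117 FPKM, far from the other 5 WT mice, which were between 71.4 and 84.2 FPKM. Its gap to the nearest of them was 0.72 of the range of the 6 mice, above Dixon's critical value of 0.625. The 12 groups of 6 values of the 6 genes were examined in this way, and chance alone is expected to set apart about 1 group in 20. Without this mouse the C1qa log2 fold change was -0.41 (limma adjusted p = 0.00874), against -0.48 with it.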

How the results depend on the processing

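Of 412 values recomputed under the alternatives, 402 kept their direction and their side of the threshold or moved by less than the spread between mice. C1qa in males alone (-0.37, limma adjusted p = 0.110) and Tlr4 in females alone (-0.048, adjusted p = 0.228) no longer passed, with 3 mice per genotype left. The number of the 6 genes past both thresholds, 2 in the report, was 4 with a constant of 1, 5 with a constant of 0.1, 1 in males alone and 3 in females alone. It ranged from 1 to 3 when each mouse was left out, and was 1 without Axl-/-Mertk-/- mouse 220, when the log2 fold change of Cfp was -0.48. All 6 kept an adjusted p under 0.05 (limma) when any 1 mouse was left out. The share of the WT mean kept by Tlr4, 68.2% in all mice, was 61.1% in males and 77.1% in females. The difference between complement and receptor genes, -0.34, was 0.26 without Fcna and, in an alternative added after the data had been seen, 0.12 without Fcna and Siglec1, and it ranged from -0.44 to -0.29 over omitted mice. Tlr4 and Siglec1 have a mean under 1 FPKM and gave no value under that minimum. No paired analysis was possible because the labels give each mouse its own number and the genotypes share none. The spread between mice was at the limit set by counting for Tlr4 in the mutants (9.2% against 13.2%) and above it for Fcna (56.8% against 18.9%) and Siglec1 (28.8% against 16.0%) in the mutants.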
